A study of Mus musculus with 46 samples.

Results

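Signalling through cyclic AMP and its kinase, protein kinase A, was followed in mouse testis through 8 genes, Adcy10, Prkaca, Prkar1a, Prkar2a, Akap1, Akip1, Pde8a and Gkap1. They were taken by symbol, and every probe annotated to one of them was kept, which gave 15 of the 25697 probes on the array and 8 of the 16593 genes with a probe. Akap1 has 6 of the probes, Gkap1 and Prkaca 2 each, and the other genes 1 each. By the annotation Adcy10 lies on chromosome 1, Pde8a and Akip1 on chromosome 7, Prkaca on 8, Prkar2a on 9, Akap1 and Prkar1a on 11 and Gkap1 on 13. The probe annotation names no genome build, so positions are given only for the promoter windows below.

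Cyclic AMP is made by adenylyl cyclases and broken down by phosphodiesterases. It binds the regulatory subunits of protein kinase A, which then let go of the catalytic subunits, and anchoring proteins hold the kinase at particular places in the cell. In male germ cells this pathway is known for its part in the maturation and motility of sperm, which rely on a soluble, bicarbonate-activated cyclase, the product of Adcy10, and on a catalytic subunit that in germ cells starts from an alternative first exon of Prkaca.

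Each array held the RNA of 1 testis, taken from adult male mice of the Swiss strain. The mice had drunk water with acrylamide, a small reactive compound that also forms in heated starchy food, at 0.001, 0.01, 0.1, 1 or 10 µg/ml, or at 0 µg/ml as the control, for 1 month (aged 3 to 6 months), 6 months (aged 11 to 12 months) or 12 months (aged 16 to 17 months). There were 3 arrays per group at 1 and 6 months, except for 2 at 0.1 µg/ml for 1 month. At 12 months there were 2 arrays for the control, 2 each at 0.001 and 0.01 µg/ml, 3 at 0.1 µg/ml, and 1 each at 1 and 10 µg/ml. Time of exposure and age therefore rose together, and the 2 cannot be told apart. Values are log2 of the processed signal, in which differences between dim probes are compressed, and levels of different probes were not set against each other as amounts of RNA.

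Germ cell markers were among the brightest probes, with Ldhc at a mean log2 value of 14.13, Prm1 at 14.01 and Odf1 at 14.13, while the 7 epididymis markers measured lay between 7.70 and 8.23. Some early germ cell markers were dim, among them Sycp3 (7.67) and Dmc1 (7.69). In bulk RNA of a testis, fewer cells of a type and less RNA per cell cannot be told apart. One library stood apart: the correlation of replicate 3 at 0.001 µg/ml for 1 month with all the others averaged 0.844, and that of every other array was at least 0.974. Sample names in the labels run from 1 to 46 and follow the groups, controls first within each time. Sets of 8 consecutive numbers, the last of 6, are used below to follow the values along that order, although the labels name no slide.

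Cyclic AMP responsive elements, the DNA motif bound by the CREB and CREM family of factors that protein kinase A acts on, were looked for in the promoters of the member genes. RefSeq windows from 250 bases before to 50 bases after a gene's start (build GRCm38.p6) covered 7 of the 8 genes in 15 windows. The full element, TGACGTCA, which reads the same on both strands, was in 2 overlapping windows of Prkar1a and in 1.79% of all 32817 windows. The short element, TGACG or on the other strand CGTCA, which also lies within each full element, was in 6 windows of 4 genes (Pde8a, Prkaca, Prkar1a and Prkar2a), against 20.8% of all windows. The windows of Adcy10, Akip1 and Akap1 held neither run of letters. Shown are the window of Pde8a at chr7:81213015-81213314, whose probe had the largest fall at 10 µg/ml for 6 months among the members, the windows of the 2 starts of Prkaca at chr8:83972728-83973027 and chr8:83976633-83976932, a gene of which 1 probe passed tests and the other none, and that of Prkar1a at chr11:109650699-109650998, which holds the full element and whose probe passed in no comparison. All lie on the plus strand and are written 5′ to 3′, with the short elements, on either strand, in capitals.
Pde8a: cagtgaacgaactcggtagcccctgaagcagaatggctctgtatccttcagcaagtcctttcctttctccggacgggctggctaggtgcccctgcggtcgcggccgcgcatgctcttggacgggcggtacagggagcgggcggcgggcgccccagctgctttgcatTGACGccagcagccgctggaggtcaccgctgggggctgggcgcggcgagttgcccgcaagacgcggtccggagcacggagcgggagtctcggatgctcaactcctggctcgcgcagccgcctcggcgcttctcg
Prkaca, upstream start: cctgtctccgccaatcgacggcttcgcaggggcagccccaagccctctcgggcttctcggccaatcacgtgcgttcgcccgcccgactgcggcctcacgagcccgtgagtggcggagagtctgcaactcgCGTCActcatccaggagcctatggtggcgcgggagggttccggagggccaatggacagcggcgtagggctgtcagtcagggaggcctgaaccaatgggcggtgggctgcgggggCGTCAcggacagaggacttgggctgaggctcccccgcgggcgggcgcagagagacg
Prkaca, downstream start: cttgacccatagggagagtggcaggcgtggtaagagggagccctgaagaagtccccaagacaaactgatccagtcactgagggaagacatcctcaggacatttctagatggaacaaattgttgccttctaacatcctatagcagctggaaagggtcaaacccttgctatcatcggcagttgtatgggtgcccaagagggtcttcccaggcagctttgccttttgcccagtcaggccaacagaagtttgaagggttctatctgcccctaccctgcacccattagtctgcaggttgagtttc
Prkar1a: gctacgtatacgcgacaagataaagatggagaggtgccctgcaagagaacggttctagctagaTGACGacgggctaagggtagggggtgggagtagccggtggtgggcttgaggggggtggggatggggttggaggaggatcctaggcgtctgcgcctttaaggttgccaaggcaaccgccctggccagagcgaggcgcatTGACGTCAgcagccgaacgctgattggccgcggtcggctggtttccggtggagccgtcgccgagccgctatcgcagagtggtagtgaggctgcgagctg
The short element of Pde8a begins at position -84 from the start and those of the upstream Prkaca window at positions -120 and -6. The downstream Prkaca window has none. In Prkar1a a short element begins at -187, and the full element spans the short elements that begin at -49 and -46. A match of letters describes the window and does not show that a factor binds there.

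The member probes spanned the range of the array. The brightest were Akap1 ILMN_1219231 (mean log2 value 13.67, the 99.8th percentile of all probes), Gkap1 ILMN_2682279 (13.16) and Adcy10 (11.84). Between 10 and 11 lay Prkaca ILMN_2833376 (10.54), Akap1 ILMN_2775655 (10.42), Prkar1a (10.39), Gkap1 ILMN_2890328 (10.38), Pde8a (10.22) and Prkaca ILMN_2833378 (10.09). Lower values were found for Akap1 ILMN_3146196 (8.78), Akip1 (8.15) and Akap1 ILMN_1233969 (7.89). The remaining 3 probes, Akap1 ILMN_1243858 (7.67), Akap1 ILMN_3068062 (7.70) and the only probe of Prkar2a (7.70), were among the dimmest 40% and were not tested across genes. Prkar2a, which encodes a type II regulatory subunit, ranged only from 7.65 to 7.80 over the 46 arrays, so its probe gave no usable level. For these 3 probes a two-sided permutation test of the slope over dose (100000 draws) gave p from 0.19 to 0.967 over the 3 times.

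After 6 months at 10 µg/ml the member probes that fell were those of a phosphodiesterase, an anchor and 2 kinase-binding proteins. Pde8a (-1.63), Gkap1 ILMN_2890328 (-1.52), Akap1 ILMN_2775655 (-0.99) and Akip1 (-0.50) fell on the log2 scale, while the cyclase Adcy10 and the regulatory subunit Prkar1a differed from the control by 0.01 and 0.14 without passing. Of the 12 member probes tested, 4 fell and 0 rose (limma, adjusted p under 0.05 over the 15418 probes tested). In this comparison 17.4% of all probes tested passed (8.37% lower and 9.0% higher). All 3 treated testes lay below all 3 controls for 6 member probes and above them for 1, and the groups did not overlap for 45.9% of all probes tested. The median difference was -0.28 over the 12 member probes and 0.02 over all probes tested. These falls cannot be told apart from the position of the arrays in the labels' order, as described further on.

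**Figure D1:**
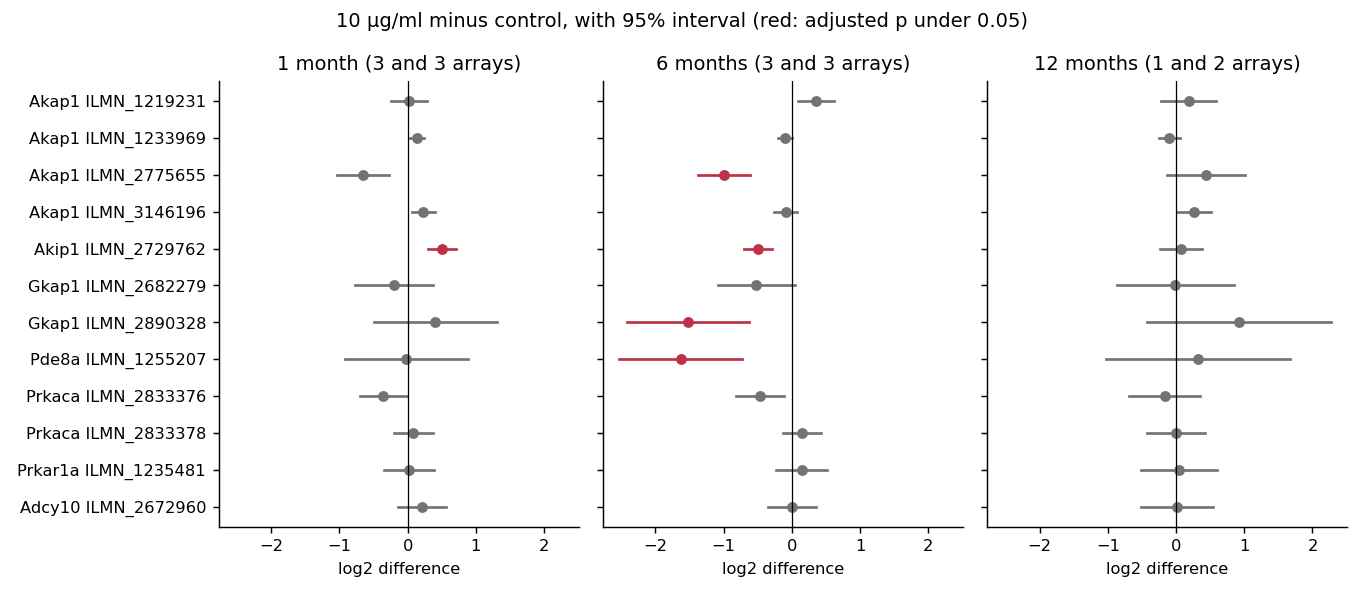
Log2 difference of 10 µg/ml minus control for the 12 member probes tested, at 1, 6 and 12 months, with 95% intervals from the limma fit. Red marks an adjusted p under 0.05, which 4 probes reached below 0 at 6 months, 1 above 0 at 1 month (Akip1) and 0 at 12 months.

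Pde8a, a phosphodiesterase with high affinity for cyclic AMP, had log2 values of 9.56, 9.44 and 9.44 at 10 µg/ml for 6 months, against 11.21, 11.11 and 11.01 in the controls of that time. The groups did not overlap, and the difference was -1.63 ± 0.44 (standard error, as for every difference below; adjusted p = 0.012), or 0.324 of the control on the linear scale. The 0.1 µg/ml testes (9.84, 9.72 and 10.13) and the 1 µg/ml testes (9.66, 9.74 and 9.95) were also below the controls without passing the test (at 1 µg/ml 0.311% of all probes passed), and at 0.01 µg/ml 1 testis was as high as the controls (11.41) and the other two were low (10.05 and 9.52). The 0.001 µg/ml testes, at 10.92, 10.76 and 11.18, overlapped the controls.

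Gkap1 encodes a protein of the Golgi that binds the cyclic GMP dependent kinase and is abundant in germ cells. Its probe ILMN_2890328 read 9.59, 9.70 and 9.33 at 10 µg/ml for 6 months, against 11.38, 10.65 and 11.15 in controls, a difference of -1.52 ± 0.44 (adjusted p = 0.0174). The call was lost without replicate 3 at 10 µg/ml (adjusted p = 0.0722) or without control replicate 1 (0.0834) or 3 (0.0533). As for Pde8a, 1 of the 3 testes at 0.01 µg/ml was high (11.69) and the others low (9.88 and 9.68). The brighter Gkap1 probe, ILMN_2682279, was also below every control at 10 µg/ml (13.07, 12.76 and 12.84, against 13.41, 13.42 and 13.39), but with a smaller difference that did not pass (-0.52 ± 0.28, adjusted p = 0.205).

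Akap1 encodes an anchor that holds protein kinase A at the outer membrane of mitochondria, and its probes did not move alike. ILMN_2775655 read 10.13, 9.73 and 9.79 at 10 µg/ml for 6 months, against 10.74, 10.79 and 11.10 in controls, so that every treated testis was lower (-0.99 ± 0.19, adjusted p = 0.00105). The brightest Akap1 probe, ILMN_1219231, read 13.85, 13.83 and 13.89 at 10 µg/ml, against 13.39, 13.49 and 13.62 in controls. Here every treated testis was higher, with a difference of 0.36 ± 0.13 that did not pass (adjusted p = 0.0543). The other 2 tested Akap1 probes differed by -0.09 each. Both ILMN_1219231 and ILMN_2775655 are annotated to the same transcript, so these values give no single direction for the gene.

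Akip1 encodes a small protein that binds the catalytic subunit of protein kinase A. It read 7.87, 7.91 and 7.88 at 10 µg/ml for 6 months, against 8.57, 8.32 and 8.27 in controls. The 3 treated testes lay close together, below every control (-0.50 ± 0.10, adjusted p = 0.00164). The 1 µg/ml testes (8.02, 7.88 and 7.97) were below every control too, without passing the test.

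Among the kinase subunits, Prkaca encodes the catalytic subunit. Its probe ILMN_2833376 read 10.44, 10.34 and 10.22 at 10 µg/ml for 6 months, against 10.66, 10.91 and 10.83 in controls, which did not overlap but did not pass (-0.47 ± 0.17, adjusted p = 0.0559). The second Prkaca probe, ILMN_2833378, overlapped the controls, with 10.20, 9.89 and 10.25 at 10 µg/ml, against 9.80, 10.02 and 10.08 in controls (0.15 ± 0.14, adjusted p = 0.509). Prkar1a, the type I regulatory subunit, read 10.61, 10.57 and 10.44 at 10 µg/ml, against 10.37, 10.36 and 10.45 in controls, and the 95% interval of its difference ran from -0.23 to 0.52. The soluble cyclase Adcy10 read 11.68, 11.91 and 11.83 at 10 µg/ml, against 11.78, 11.75 and 11.86 in controls, with an interval from -0.34 to 0.36.

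**Figure D2:**
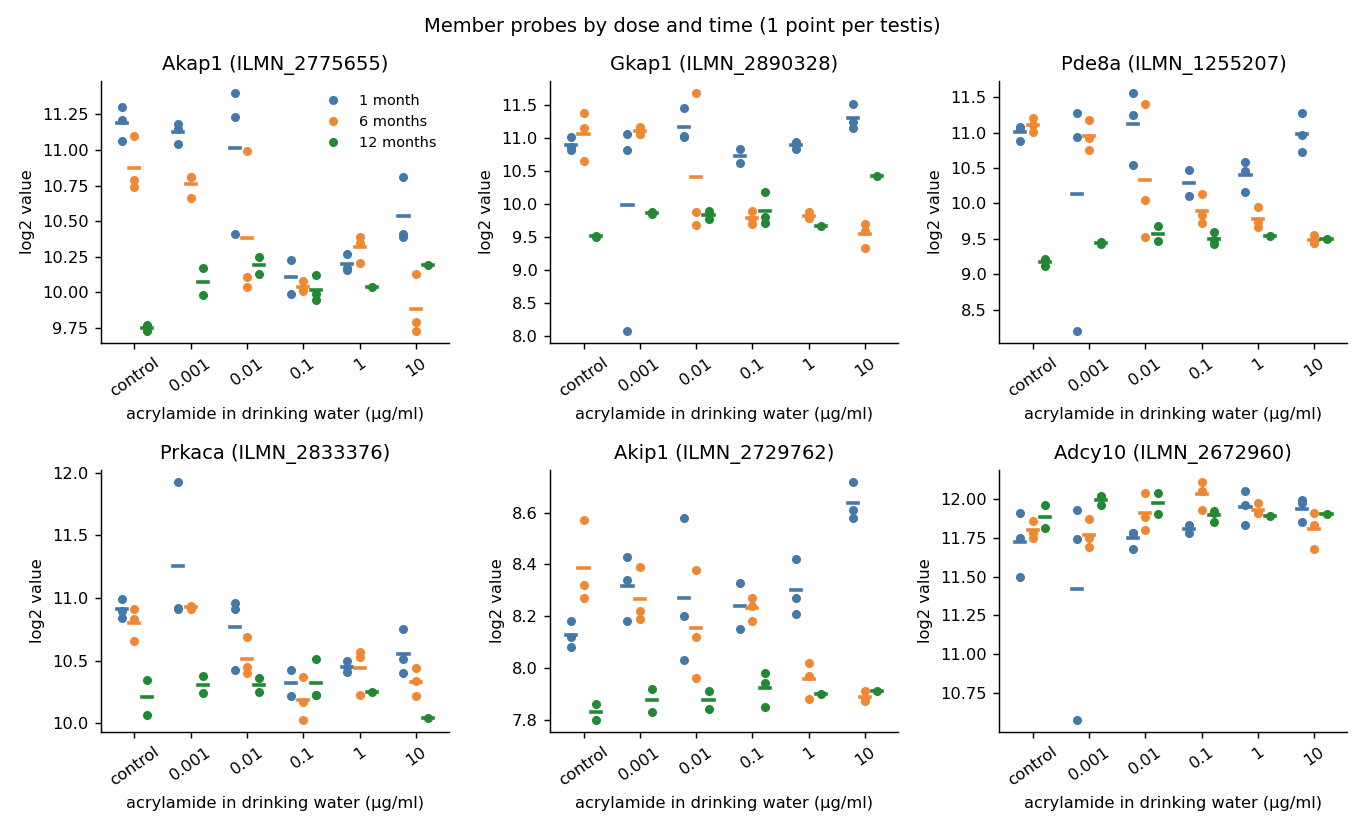
Log2 values of 6 member probes by acrylamide concentration (axis from control to 10 µg/ml), with 1 point per testis, a bar at each group mean and a colour for each time. Akap1 ILMN_2775655, Gkap1 ILMN_2890328 and Pde8a are below the 6-month controls at the higher doses at 6 months and at every dose at 12 months (Gkap1 highest at 10 µg/ml, at 10.43). Adcy10 lies between 11.50 and 12.11, apart from the library that stood apart (10.58). At 6 months its 0.1 µg/ml (11.93 to 12.11) and 1 µg/ml testes (11.91 to 11.97) are above the controls (11.75 to 11.86), without passing.

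Over the 6 doses of the 6-month arrays, the slope per dose step (each step from 0.001 µg/ml up being 10 times the one before) passed for 6 member probes, 5 falling and 1 rising, where 26.5% of all probes tested passed (12.7% falling, 13.8% rising). Gkap1 ILMN_2890328 (-0.35 ± 0.07 per step, adjusted p = 0.00113) and Pde8a (-0.34 ± 0.07, adjusted p = 0.00118) had the steepest slopes. Akap1 ILMN_2775655 fell by 0.19 per step, Prkaca ILMN_2833376 by 0.12 and Akip1 by 0.10 on the log2 scale. Akap1 ILMN_1219231 rose by 0.07 per step (adjusted p = 0.0121). At single doses below 10 µg/ml, Akap1 ILMN_2775655 (-0.84 ± 0.19, adjusted p = 0.012) and Prkaca ILMN_2833376 (-0.61 ± 0.17, adjusted p = 0.0328) fell at 0.1 µg/ml, in a comparison where 6.03% of probes passed (2.87% lower, 3.15% higher). With the set of array numbers as a term in the fit both calls ended. Akap1 ILMN_2775655 was then at 0.0811 ± 0.1688, less than its standard error from 0, and Prkaca ILMN_2833376 at -0.34 ± 0.29. In fits without 1 array the call of Akap1 was lost without control replicate 3 (adjusted p = 0.0638) and that of Prkaca in 5 of 46. These comparisons share the control testes.

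After 1 month Akip1 was higher at the top dose. It read 8.61, 8.58 and 8.72 at 10 µg/ml for 1 month, against 8.12, 8.08 and 8.18 in controls, so that every treated testis was higher (0.51 ± 0.10, adjusted p = 0.0476). It was the only member probe of the 12 to pass there, in a comparison where 0.0713% of all probes passed (11 of 15418, 0.0454% higher and 0.0259% lower), and it lost the call in 36 of the 46 fits that each left out 1 array. With the set of array numbers as a term in the fit its difference was 0.82 ± 0.16 and did not pass (adjusted p = 0.0775), and 0 of all probes passed. In a fit chosen after seeing the data, with that term and without the library that stood apart, it was 0.82 ± 0.15 and passed (adjusted p = 0.00984), where 98 of 15418 probes passed. Pde8a, which was lower at 6 months, read 10.72, 10.96 and 11.28 at 10 µg/ml for 1 month, against 11.06, 10.88 and 11.08 in controls, and the groups overlapped. Gkap1 ILMN_2890328 read 11.25, 11.52 and 11.16 at 10 µg/ml, against 11.02, 10.87 and 10.82 in controls, higher in every treated testis without passing (0.40 ± 0.44, adjusted p = 0.994). The brighter Gkap1 probe, ILMN_2682279, went the other way without passing, with 13.25 to 13.39 at 10 µg/ml, against 13.42 to 13.59 in controls. In this comparison all treated testes lay above all controls for 4 member probes and below them for 3. The groups did not overlap for 23.6% of all probes tested.

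Akap1 ILMN_2775655 was lower at 1 µg/ml at 1 month too, in a comparison that also runs between sets of array numbers. All 0.1 and 1 µg/ml testes of that time lie in set 2 and all controls in set 1. It read 10.27, 10.16 and 10.17 at 1 µg/ml, against 11.06, 11.21 and 11.30 in controls (-0.99 ± 0.19, adjusted p = 0.0148), where 0.298% of all probes passed (0.227% lower). With the set as a term in the fit the difference was -0.08 ± 0.17 and did not pass (adjusted p = 1), and the call was also lost in 5 of the 46 fits without 1 array. At 0.1 µg/ml, with 2 arrays, it read 10.23 and 9.99 without passing, where 0.00649% of probes passed. At 10 µg/ml it read 10.39, 10.41 and 10.81, against the same controls, and the difference of -0.65 ± 0.19 did not pass (adjusted p = 0.236). The slopes over dose at 1 month passed for 4 member probes, where 5.27% of all probes passed (2.63% falling, 2.64% rising). Akap1 ILMN_2775655 (-0.19 ± 0.03 per step, adjusted p = 0.00102) and Prkaca ILMN_2833376 (-0.13 ± 0.03, adjusted p = 0.0108) fell. Akip1 (0.07 ± 0.02, adjusted p = 0.0146) and the dim probe Akap1 ILMN_1233969 (0.03 ± 0.01, adjusted p = 0.0421) rose. The rise of Akap1 ILMN_1233969 lost the call in 8 of the 46 fits without 1 array, and that of Akip1 without replicate 3 at 10 µg/ml (adjusted p = 0.0589). With the set as a term 0 of these slopes passed, as for 0 of all probes. Those of Akap1 ILMN_2775655 and Prkaca ILMN_2833376 were then 0.0085 ± 0.0384 and -0.02 ± 0.07.

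At 12 months 0 member probes passed in any comparison of a dose with the control or in the slope over dose, by limma. At 10 µg/ml 3 of 15418 probes passed (0.0195%, with 0.013% higher and 0.00649% lower), and 1420 had an unadjusted p under 0.05, of which 1 was a member probe. Of all probes, 0.013% passed in the 0.01 µg/ml comparison, 0.0389% in that of 0.1 µg/ml and 0.0324% in that of 1 µg/ml. The slope over dose at 12 months passed for 3 of all 15418 probes (0.0195%). There was 1 testis at 10 µg/ml and 2 in the control, and the single testis is assumed to vary like the other groups. Pde8a read 9.50 at 10 µg/ml, against 9.22 and 9.12 in controls. Akap1 ILMN_2775655 read 10.19 at 10 µg/ml, against 9.73 and 9.77 in controls. Gkap1 ILMN_2890328 read 10.43 at 10 µg/ml, against 9.52 and 9.50 in controls. At 0.001 and 0.01 µg/ml 0 member probes passed by limma at any of the 3 times, and at 1 and 6 months neither did any other probe. The most member probes at an unadjusted p under 0.05 were 4, at 0.001 µg/ml for 1 month, the group of the library that stood apart, where 3966 of all 15418 probes had one.

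**Figure D3:**
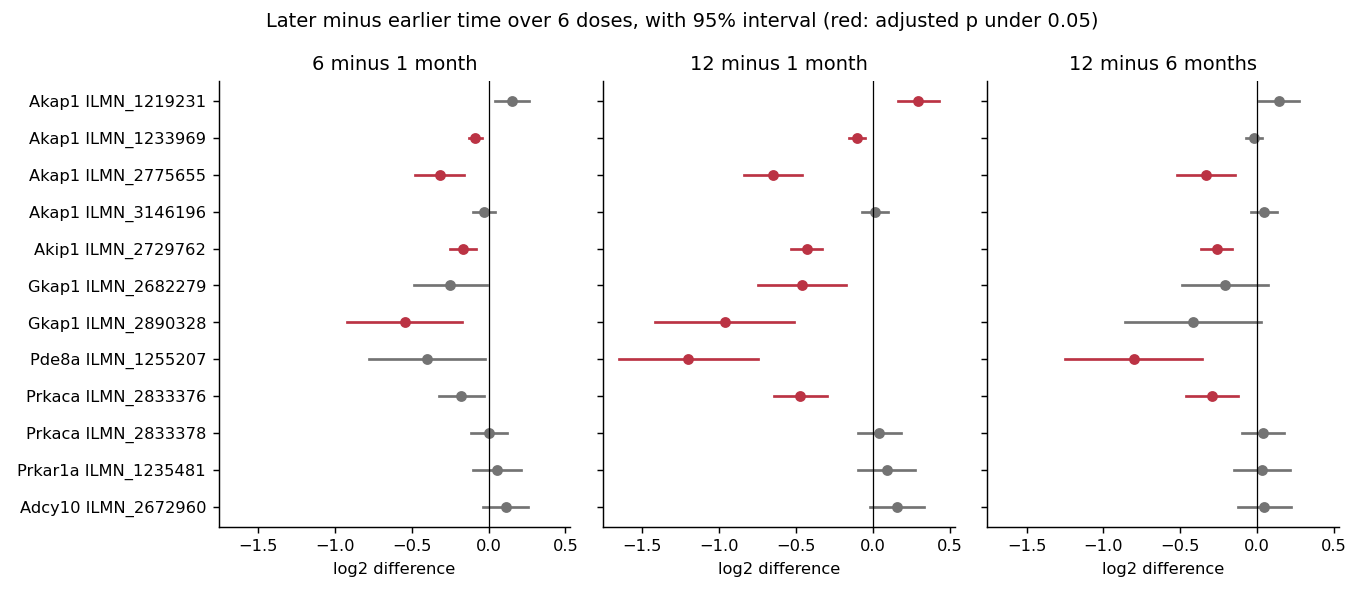
Log2 difference between exposure times, averaged over the 6 doses, for the 12 member probes tested, with 95% intervals from the limma fit and red for an adjusted p under 0.05. At 12 minus 1 month, 7 probes pass below 0 and 1 above it, and Prkar1a, Adcy10, Prkaca ILMN_2833378 and Akap1 ILMN_3146196 lie near 0 throughout.

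Pde8a, Gkap1, Akap1 ILMN_2775655, Akip1 and Prkaca ILMN_2833376 were lower at the latest time over all doses together. At 12 months against 1 month, 7 of the 12 tested member probes were lower and 1 higher, where 41.2% of all probes passed (18.3% lower, 22.9% higher). Pde8a fell by 1.20 on the log2 scale, with an error of 0.22 (adjusted p = 8.18e-05). Its 11 values at 12 months lay between 9.12 and 9.68 (median 9.47), against 8.20 to 11.56 (median 10.88) at 1 month, where the lowest value is that of the library that stood apart. Apart from that library, no Pde8a value at 1 month was as low as the highest at 12 months.

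In the same comparison Gkap1 ILMN_2890328 fell by 0.97, its brighter probe by 0.46, Akap1 ILMN_2775655 by 0.65, Prkaca ILMN_2833376 by 0.47, Akip1 by 0.43 and Akap1 ILMN_1233969 by 0.11 on the log2 scale. Akip1 ranged from 7.80 to 7.98 at 12 months (11 arrays), against 8.03 to 8.72 at 1 month (17 arrays), and the 2 times did not overlap. Akap1 ILMN_1219231 was higher at 12 months (0.30 ± 0.07, adjusted p = 0.000608), with 13.69 to 13.93 at 12 months, against 12.79 to 13.76 at 1 month.

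The controls alone also differed with time for Pde8a. Its control values were 9.22 and 9.12 at 12 months and 11.21, 11.11 and 11.01 at 6 months, against 11.06, 10.88 and 11.08 at 1 month. The 6-month controls were thus as high as those at 1 month, and the 6-month testes at 10 µg/ml (9.56, 9.44 and 9.44) were near the 12-month testes of every dose. Those 6-month testes at 10 µg/ml lie in set 5 of the array numbers, together with the 12-month controls, and the 6-month controls lie in set 3. Their likeness to the 12-month testes therefore cannot be told apart from the position in the labels' order. Prkar1a and Adcy10 passed in none of the time comparisons, and their largest difference was 0.09 ± 0.09 and 0.16 ± 0.09, both at 12 months against 1 month.

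At 6 months against 1 month 4 member probes fell, Akap1 ILMN_2775655 (-0.32 ± 0.08), Akap1 ILMN_1233969 (-0.09 ± 0.02), Akip1 (-0.17 ± 0.04) and Gkap1 ILMN_2890328 (-0.55 ± 0.18), where 17.3% of all probes passed. The call of Gkap1 was lost in 15 of the 46 fits without 1 array, with an adjusted p of up to 0.0756. At 12 months against 6 months Akap1 ILMN_2775655 (-0.33 ± 0.09), Akip1 (-0.26 ± 0.05), Pde8a (-0.80 ± 0.22) and Prkaca ILMN_2833376 (-0.29 ± 0.08) fell, where 9.5% passed. The call of Prkaca was lost without replicate 1 of the control (adjusted p = 0.055) or of 0.01 µg/ml (adjusted p = 0.0533) at 12 months. Without the library that stood apart, 7 member probes passed in each of these 2 comparisons and also at 10 µg/ml against control at 6 months, where Akap1 ILMN_1219231, Gkap1 ILMN_2682279 and Prkaca ILMN_2833376 were added. The calls over all 15418 probes rose in those fits too, to 4936 at 6 months against 1 month, 3730 at 12 months against 6 months and 5073 at 10 µg/ml, against 2665, 1464 and 2679 with that library.

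**Figure D4:**
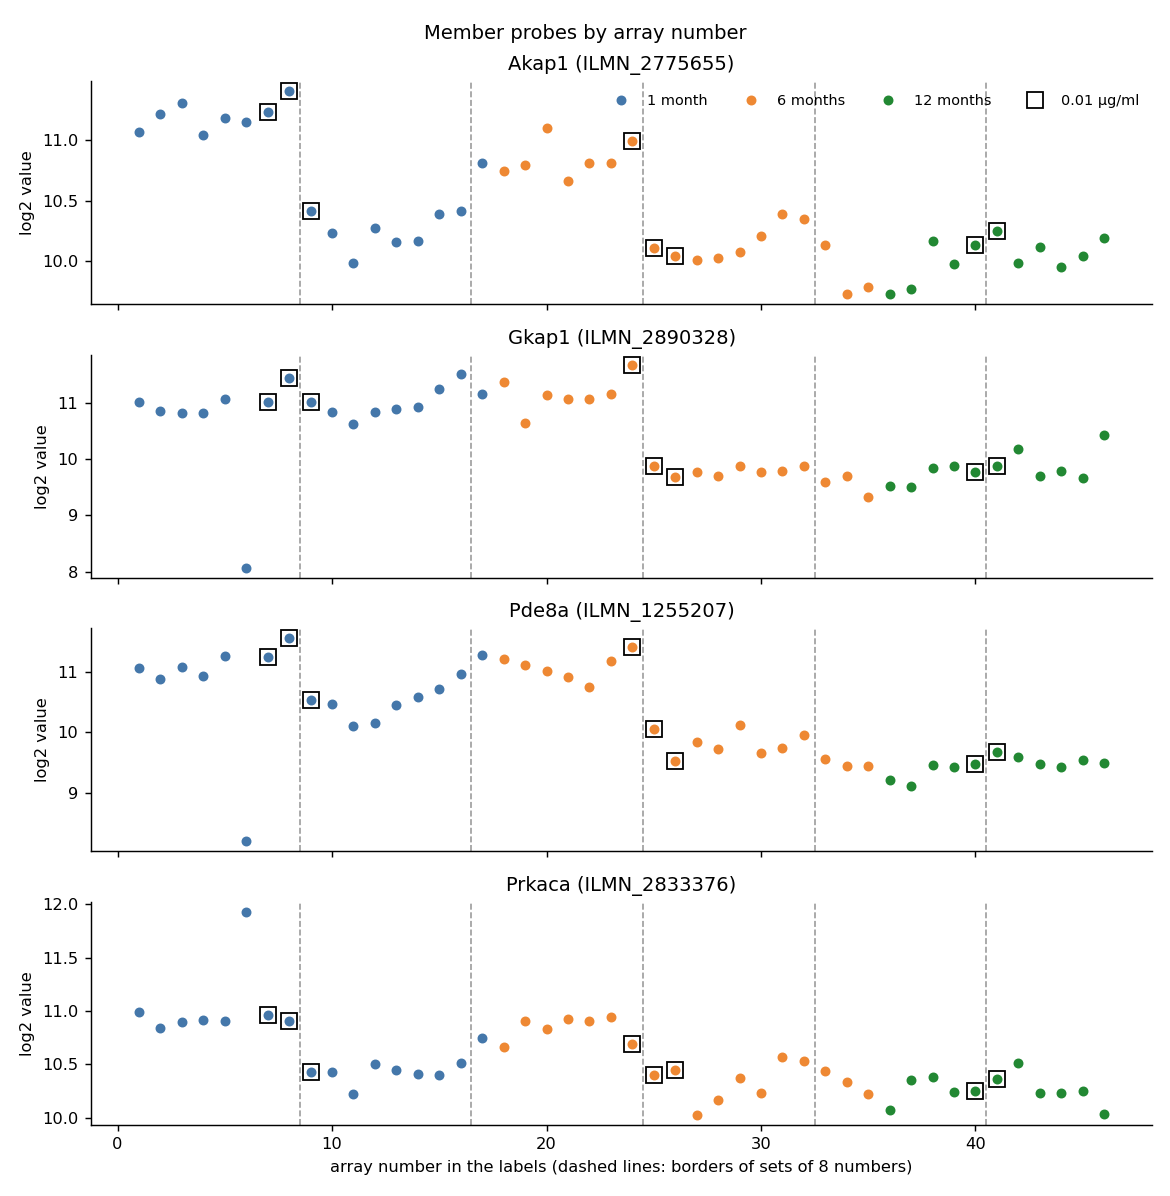
Log2 values of 4 member probes along the array numbers 1 to 46 of the labels, with 1 point per testis, a colour for each time, dashed lines at the borders of sets of 8 numbers and black squares at the testes given 0.01 µg/ml. Akap1 ILMN_2775655, Gkap1 ILMN_2890328 and Pde8a drop between arrays 24 and 25, both from the 0.01 µg/ml group at 6 months.

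Values of these probes changed in a step at some set borders that split a dose group, and not at others. At 6 months the 3 testes given 0.01 µg/ml fall on either side of the border between set 3 and set 4. Akap1 ILMN_2775655 read 10.11 and 10.04 in set 4, against 10.99 in set 3, a difference of -0.92 ± 0.14 within 1 dose (adjusted p = 0.000501, where 3.42% of all probes passed). The difference of 10 µg/ml and control at this time was -0.99 ± 0.19. Across the same border Gkap1 ILMN_2890328 differed by -1.91 ± 0.60 (adjusted p = 0.0762) and Pde8a by -1.62 ± 0.61 (adjusted p = 0.154), without passing.

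At 1 month the 0.01 µg/ml testes are split by the border between set 1 and set 2. Akap1 ILMN_2775655 read 10.41 in set 2, against 11.23 and 11.40 in set 1 (-0.91 ± 0.14, adjusted p = 0.0066, where 0.0713% of all probes passed). The 10 µg/ml testes at 1 month are split too, and there the same probe read 10.81 in set 3, against 10.39 and 10.41 in set 2 (0.40 ± 0.14, adjusted p = 1). Within 0.01 µg/ml at 1 month, set 2 minus set 1 was -0.22 ± 0.60 for Gkap1 ILMN_2890328 and -0.87 ± 0.61 for Pde8a. At 12 months the 0.01 µg/ml testes are split between set 5 and set 6. There set 6 minus set 5 was 0.12 ± 0.16 for Akap1 ILMN_2775655, 0.125 ± 0.69 for Gkap1 ILMN_2890328 and 0.21 ± 0.70 for Pde8a. Over the whole of 6 months, Pde8a lay between 9.44 and 9.56 in set 5 (3 testes) and between 9.52 and 10.13 in set 4 (8 testes), against 10.76 to 11.41 in set 3 (7 testes). Gkap1 ILMN_2890328 lay between 9.33 and 9.70 in set 5 and between 9.68 and 9.89 in set 4, against 10.65 to 11.69 in set 3. Within set 4, which holds 0.01, 0.1 and 1 µg/ml, the slope was 0.02 ± 0.22 per step for Gkap1 ILMN_2890328 and -0.01 ± 0.22 for Pde8a.

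Slopes over dose within a set passed for 0 member probes in each of the 6 sets, by limma. Of all 15418 probes, 0 passed in 5 of these sets and 1 passed in set 5, with between 247 and 985 at an unadjusted p under 0.05. The slope of Akip1 at 1 month kept its direction inside both sets, at 0.14 ± 0.05 in set 1 and 0.17 ± 0.04 in set 2 (adjusted p = 0.18 in set 2). That of Akap1 ILMN_2775655 did not, being 0.05 ± 0.05 in set 1 and 0.04 ± 0.04 in set 2. All 10 µg/ml testes at 6 months lie in set 5 and all their controls in set 3, so for 10 µg/ml at 6 months, and for the slope over all 6 doses there, dose and set cannot be told apart. The 0.01 µg/ml group links set 4 to set 3, so 0.1 and 1 µg/ml could be fitted with the set as a term. There 0 member probes passed, and the share of all probes that passed was not counted. At 1 µg/ml 0 member probes had passed without the term too, where 0.311% of all probes did. In the comparisons between times over all 6 doses, time and set cannot be told apart. Sets 3 and 5 each hold testes of 2 times, at different doses. In set 3 Pde8a read 11.28 in 1 testis of 1 month, against 10.76 to 11.41 in 7 of 6 months. In set 5 it read 9.44 to 9.56 in 3 testes of 6 months, against 9.12 to 9.47 in 5 of 12 months.

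**Figure D5:**
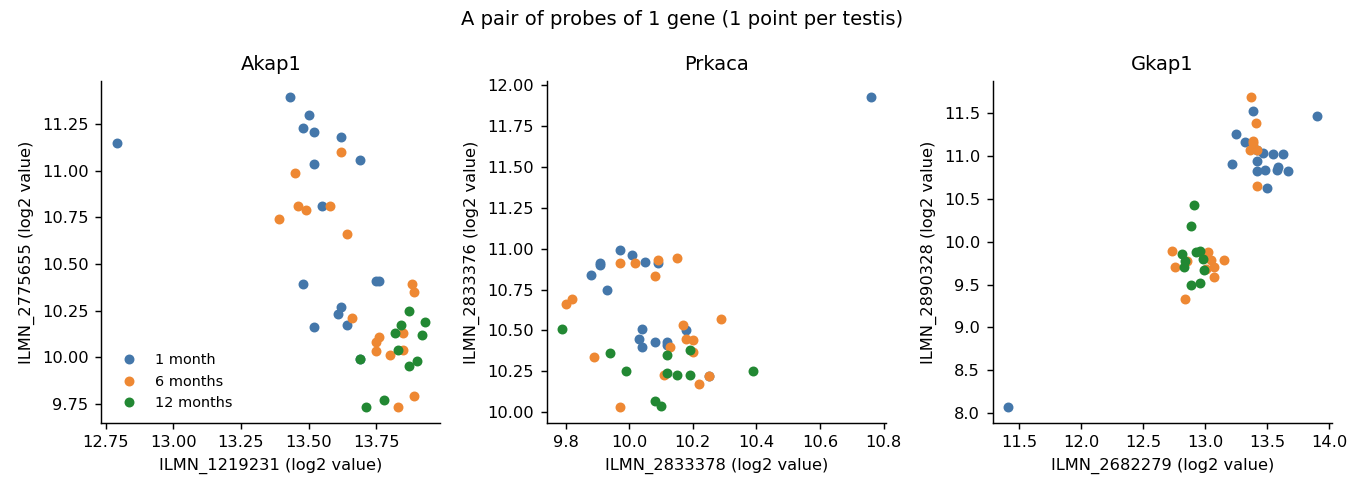
Log2 values of a pair of probes of Akap1, Prkaca and Gkap1 against each other, with 1 point per testis and a colour for each time. The Gkap1 probes are low together in the later testes, the Akap1 probes run in opposite directions, and the Prkaca probes separate along 1 axis only.

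Where a gene had more than 1 bright probe, the probes were compared across the 46 arrays after the group means were taken away, as a description. The Gkap1 probes moved together (Pearson's r = 0.843, or 0.702 without the library that stood apart). The Prkaca probes did so less (r = 0.42, or 0.116 without that library). Akap1 ILMN_1219231 and ILMN_2775655 moved in opposite directions (r = -0.381, or -0.465 without it). The library that stood apart read 8.20 for Pde8a, 8.07 and 11.41 for the Gkap1 probes, 12.79 for Akap1 ILMN_1219231, 9.14 for Prkar1a and 10.58 for Adcy10, each the lowest of the 46, and 11.93 and 10.76 for the Prkaca probes, each the highest.

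The germ cell and somatic markers of the testis moved in the same comparisons. Of all probes tested, 17.4% passed at 10 µg/ml against control at 6 months (8.37% lower, 9.0% higher). In that comparison 6 of the 12 elongating spermatid markers tested fell and 1 rose, and 5 of the 11 round spermatid markers fell. Of the 12 Sertoli cell markers tested, 5 rose and 0 fell, and 2 of 4 markers of peritubular myoid and smooth muscle cells rose, while 0 of 8 Leydig cell and 0 of 7 macrophage markers passed. The mean log2 value over the elongating spermatid list was 12.61 to 12.68 at 10 µg/ml, against 13.04 to 13.09 in controls. That over the Sertoli cell list was 9.71 to 9.74 at 10 µg/ml, against 9.38 to 9.47 in controls. Of the 9 spermatocyte markers tested, 4 fell and 2 rose. At 12 months against 1 month, where 41.2% of all probes passed, 6 elongating spermatid markers fell and 3 rose, 5 round spermatid markers fell and 3 rose, 3 spermatocyte markers fell and 2 rose, 4 Sertoli cell markers rose and 1 fell, and 5 of 7 macrophage and 4 of 8 Leydig cell markers rose. The part of these shifts in the values of the member genes was not tested.

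Other genes of the pathway, from lists chosen with earlier results of these data known, are given by their brightest probe. Of 6 other kinase subunits and inhibitors tested, the inhibitors Pkig (-1.34 ± 0.38) and Pkib (-0.83 ± 0.21) fell at 10 µg/ml against control at 6 months, while the inhibitor Pkia (0.19 ± 0.06) and the catalytic subunit relative Prkx (0.21 ± 0.07) rose. The share of all probes that passed there was 17.4%. Of 16 other anchoring proteins tested, 3 fell and 2 rose. Those that fell were Ropn1 (-1.88 ± 0.46), Akap4 (-0.66 ± 0.09) and Akap8, an anchor of the nucleus (-0.37 ± 0.08). Akap9, an anchor of the centrosome and Golgi, was among those that rose (0.36 ± 0.09). Akap4 and Ropn1 are also counted among the elongating spermatid markers above. Of 11 genes tested from the list of other phosphodiesterases, Pde6d alone passed, and it rose (0.55 ± 0.11). Pde6d encodes a delta subunit and not an enzyme that breaks down cyclic nucleotides. Of 11 other targets of cyclic AMP, Crem fell (-0.89 ± 0.14), a transcription factor of round spermatids, and Rapgef3 rose (0.17 ± 0.06). Crem is also counted among the round spermatid markers above. The 4 other adenylyl cyclases and 4 genes of the cyclic GMP kinase pathway that were tested did not pass by limma.

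The same lists at 12 months against 1 month, where 41.2% of all probes passed, held 3 kinase subunits or inhibitors that rose, among them Prkacb, the second catalytic subunit (0.43 ± 0.09), and 2 that fell, among them Pkig (-0.98 ± 0.19). Of the phosphodiesterase list 5 rose and 1 fell, Pde1c (-0.55 ± 0.15). Gnas, the stimulatory G protein, fell (-0.25 ± 0.05), as did the cyclases Adcy7 (-0.06 ± 0.02) and Adcy9 (-0.07 ± 0.03). Of the anchoring proteins 5 fell and 4 rose.

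For the brightest tested probe of each member gene, the probes of other genes whose values ranked most alike over the 46 arrays are given as a description, with Spearman's rho. The arrays share doses, times and positions in the labels' order. Pde8a had the closest partners, Art3 (0.966) and 1700018F24Rik (0.962). Akip1 was closest to Nop14 (0.89) and Drc3 (0.885), Akap1 ILMN_1219231 to Zbtb18 and Cenpn (0.88 each), Prkaca ILMN_2833376 to Zkscan17 (0.853) and Sh3gl3 (0.849), and Gkap1 ILMN_2682279 to Spryd7 and Fam162a (0.84 each). Adcy10 was closest to Ppp4r1 (0.792) and Gga3 (0.732), and Prkar1a to Tor4a (0.632) and Arglu1 (0.591).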

How the data were processed

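The authors deposited processed values of 46 arrays on the log2 scale, which per the submitters' processing notes were made with lumi, its version and settings not given in the sources used here. The authors also deposited a table of non-normalized intensity per probe, in which 33 of 45 columns used stand in another order than the probe names, with 1 further column not used. Their order was restored by ranks, matching 25687 probes, for 2 alternatives only. Against these intensities the processed values had a median slope of 0.586 at log2 intensities of 7 to 8 and 1.02 at 12 to 13.

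Dose and time in the titles set the 18 groups. The dimmest 40% of probes were left out, and the other 15418 were fitted with limma (version 3.58.1, R version 4.3.3), with a mean per group and a pooled spread. The adjustment of Benjamini and Hochberg covered all 15418, and an adjusted p under 0.05 counted as passing. The fit was tested on simulated data with noise drawn independently for each array. The spread of that noise was taken without the library that stood apart, so the effect of that library was not tested there. The number of arrays limits the precision.

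The members and lists were chosen with earlier results of these data known. All member probes are described. Of each list up to 4 genes with the smallest p among those past the threshold were named in a comparison, and 2 most alike probes per member.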

Additional observations from a re-analysis of the deposited data

Results flagged for a closer look

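The slope over dose of a member probe differed between exposure times in 9 of the 36 differences tested (12 probes, 3 pairs of times), by limma with an adjusted p under 0.05. Later minus earlier time, in log2 per dose step, these were the following. At 6 months minus 1 month, where 11.1% of all probes passed, the difference was -0.47 for Gkap1 ILMN_2890328 (adjusted p = 0.005), -0.34 for Pde8a (adjusted p = 0.0332, lost in 6 of the 46 fits without 1 array, up to 0.0834), -0.17 for Akip1 (adjusted p = 0.000551) and -0.05 for Akap1 ILMN_1233969 (adjusted p = 0.00651). Akip1 sloped down at 6 months (-0.10) and up at 1 month (0.07), and passed at both times.

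At 12 months minus 6 months, where 18.8% of all probes passed, the difference was 0.46 for Gkap1 ILMN_2890328, 0.41 for Pde8a, 0.25 for Akap1 ILMN_2775655 and 0.11 for Akip1. Without 1 array, Pde8a lost this call when either control replicate (adjusted p of 0.0636 and 0.0697) or the 10 µg/ml testis (0.0623) at 12 months was left out, and Gkap1 when that testis was (0.0767). At 12 months minus 1 month, where 3.88% passed, it was 0.25 for Akap1 ILMN_2775655 (adjusted p = 0.0109), which lost the call in 1 of the 46 fits without 1 array (adjusted p = 0.0518). With the set of array numbers as a term in the fit, that last difference was 0.0174 and did not pass. The 6-month slopes cannot be told apart from the set.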

How the results depend on the processing

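Counts of member probes called were recomputed under 12 other settings and without each of the 46 arrays in turn. The count at 10 µg/ml against control at 12 months (0), the slopes at 12 months (0) and at 6 months (6) and the count at 12 months against 1 month (8) stayed within 1.5 times under each setting that could be fitted. At 10 µg/ml for 1 month the count of 1 became 0 with no filter, cyclic loess, either set of restored intensities, the set as a fixed term or only the time points compared, and 5 with array weights. At 10 µg/ml for 6 months the count of 4 became 7 with only the time points compared, array weights, or without the library that stood apart. The 1-month slopes (4) became 2 with background-subtracted intensities, 0 with the set as a fixed term, with or without that library, 1 with only the time points compared and 7 with array weights. At 6 months against 1 month and 12 months against 6 months the count of 4 became 8 and 7 with array weights and 7 and 7 without that library. Without 1 array, the counts ranged from 0 to 1 at 10 µg/ml for 1 month, 3 to 7 at 6 months, 2 to 5 for the 1-month slopes, 6 to 8 for the 6-month slopes, 8 to 9 for 12 months against 1 month and 3 to 7 for each other pair of times. Calls over all 15418 probes moved with these counts. At 10 µg/ml for 6 months 2679 became 4225 with only the time points compared, 5716 with array weights and 5073 without that library. For 1 month at that dose 11 became 1171 with array weights, and the 1-month slopes went to 2606 with array weights 39 with only the time points compared and 0 with the set as a fixed term (13 without that library), against 812. The times became 6531 (6 against 1 month) and 4000 (12 against 6 months) with array weights. The cause was not tested.

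With the set as a fixed term, Akap1 ILMN_2775655 changed sign but lay near 0 at 0.1 µg/ml for 6 months (0.0811, also without that library). Its 1-month slope did so too (0.0085, or 0.0077 without it). The 1-month slope of Prkaca ILMN_2833376 changed sign only without that library, and lay near 0 (0.0099). That term gave no value for 10 µg/ml at 6 months, the 6-month slopes or the times. Replicate numbers did not pair the arrays: deviations from the group means correlated at a mean of 0.006 between arrays of the same number and -0.003 between others. With the replicate block, the count at 10 µg/ml for 6 months was 4, that at 1 month 1, and the 1-month slope of Akap1 ILMN_1233969 lost its call (adjusted p = 0.0506). The settings that use the set of array numbers, apart from the fixed term and the random block over all arrays, were chosen after seeing the data.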
